A study of Mus musculus with 4 samples.

Results

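Antisense genes are noncoding genes whose RNA is copied from the DNA strand opposite to another gene. The deposited gene annotation of the study classed 2068 of its 46078 genes (4.49%) as antisense. They were taken by that class alone, and each was paired with every protein-coding gene of the opposite strand whose span, from first to last annotated base, it overlapped. A coding partner was found for 1787 of the 2068 (86.4%), which gave 2047 pairs with 1748 coding genes. The choice used the annotation only, and no value of a library entered.

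The study grew macrophages from bone marrow of C57/BL6 mice with M-CSF, which drives macrophage growth, and kept them in a pressure chamber for 6 h. The 4 groups were Piezo1 fl/fl cells and Piezo1 fl/fl LysM Cre+ cells, each under static or cyclic hydrostatic pressure, with 1 library per group. All groups carried floxed alleles of Piezo1, a stretch-activated ion channel, and LysM-Cre removes floxed sequence in myeloid cells. The ages of the mice and the number behind a library were not stated in the labels, and expression values were not analysed here. Polyadenylated RNA was sequenced as read pairs of 75 bases. Strandedness of the kit was not given in the sources used here. Without strand, reads that lie within an unbroken stretch of exon shared by an antisense gene and its partner cannot be told apart.

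Antisense RNAs are known to act in several ways. Some keep a neighbouring gene silent as they are transcribed, as Airn and Kcnq1ot1 do at imprinted loci and Tsix does to Xist. Some pair with the messenger RNA of the other strand, as the antisense RNA of Uchl1 does to raise its translation, and some are only the trace of a promoter that fires in both directions. Where an antisense exon lies over a coding exon, the RNAs are perfectly complementary there, whereas an antisense gene within an intron shares bases with the unspliced precursor only.

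The complementarity is shown for 5 pairs in which an antisense exon runs across the start codon of its partner, because these stretches hold the first coding bases of the messenger RNA. Each antisense sequence is written 5′ to 3′ and ends in capitals with the complement of the ATG. The letters come from GENCODE M21 transcripts whose exons, chromosome and strand equal the deposited ones, and coordinates are on GRCm38.
RP24-176P19.3, antisense to Lef1, chr3:131111472-131111531, minus strand: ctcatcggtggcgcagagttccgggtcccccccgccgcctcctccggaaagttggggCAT
Gm20402, antisense to Foxo1, chr3:52268802-52268861, minus strand: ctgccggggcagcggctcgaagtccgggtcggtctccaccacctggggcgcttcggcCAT
RP24-122I22.6, antisense to Il6ra, chr3:89912980-89913039, plus strand: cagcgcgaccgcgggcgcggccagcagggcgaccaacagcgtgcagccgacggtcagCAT
Gm16083, antisense to Cd55, chr1:130462610-130462669, plus strand: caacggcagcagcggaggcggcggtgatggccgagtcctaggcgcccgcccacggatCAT
Uchl1os, antisense to Uchl1, chr5:66676290-66676322, minus strand: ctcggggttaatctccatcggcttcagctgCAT
The same 33 bases of Uchl1, on the plus strand, with the start codon in capitals: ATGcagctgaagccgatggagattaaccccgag
Lef1 and Foxo1 encode transcription factors, Il6ra a chain of the interleukin-6 receptor, Cd55 a membrane protein that holds back complement, and Uchl1 a deubiquitinating enzyme of neurons. Coding letters were compared with the reverse complement of antisense letters in 1019 pairs for which both sequences were at hand. The letters were equal in 1019 of 1019. Both sets belong to the same positions of the same genome build, so equality was bound to follow. The comparison checks only how strand and coordinates were handled, and is no evidence that the RNAs pair.

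The annotation held 8 kinds of pair, from 4 positions and the presence or absence of exon overlap. Most pairs, 1179 of 2047 (57.6%), had the antisense gene inside the span of the coding gene. In 471 (23.01%) it lay over the 5′ end of the coding gene, in 301 (14.7%) over the 3′ end, and in 96 (4.69%) it covered the whole gene. Exons overlapped by at least 1 base in 1174 pairs (57.4%). The share with exon overlap was 76.9% over 5′ ends, 78.4% over 3′ ends, 50% for covering genes and 44.8% for antisense genes inside a coding gene. Pairs are not independent, because 147 antisense genes had 2 or more partners and 217 coding genes had 2 or more antisense genes. All shares are complete counts of the annotation, so they carry no sampling error.

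**Figure D1:**
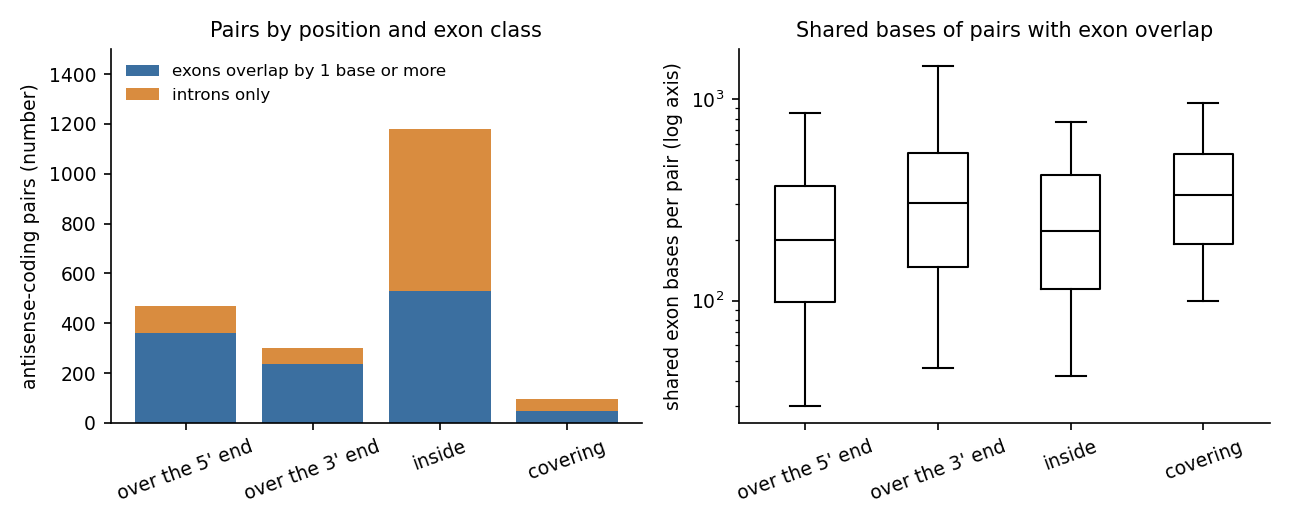
Left, the number of antisense-coding pairs in each position (bars), divided into pairs with at least 1 shared exon base and pairs that meet in introns only. Right, shared exon bases per pair on a log axis for the 1174 pairs with exon overlap (line: median; box: quartiles; whiskers: 5th to 95th percentile), with medians of 199.5 over 5′ ends, 304 over 3′ ends, 220.5 inside and 335 for covering genes.

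The 873 pairs without a shared exon base fell into 3 arrangements. In 523 the antisense exons lay within a single intron of the coding gene. In 305 the exons of each gene lay in introns of the other, so the gene models interleaved. In 45 the whole coding gene sat within an intron of the antisense gene, as Tyk2, a kinase of interferon and cytokine receptors, did in 1700084C06Rik. At the threshold of 1 base, the smallest overlaps were 2 bases, in Gm14104 with Crls1 and in Ict1os with Ict1. The closest exons without overlap were 1 base apart in 1700060C20Rik and D630003M21Rik, and 6 bases apart in Gm15346 and Ikbkb, a kinase that activates NF-κB.

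Shared stretches were short beside the coding transcripts. Pairs with exon overlap shared a median of 236 bases (quartiles 117 and 434), and the most was 5142 bases, between the single-exon gene A630072M18Rik and Rsbn1l. The shared bases took a median of 24.5% of the union exon length of those antisense genes, which is the number of bases covered by exons of any transcript, and 5.05% of that of their partners. An unbroken overlap of at least 75 bases, the read length, between an antisense transcript and a protein-coding transcript was present in 959 of the 1174 pairs (81.7%). In 50 pairs (4.26%) the overlap was with transcripts of the partner that are not protein-coding, such as retained introns.

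Coding sequence took 48.3% of all shared exon bases. The overlap reached coding sequence in 859 pairs (73.2%), lay wholly within it in 404 and wholly outside it in 315. A codon counted as covered when the overlap held at least 1 base of it, in any protein-coding transcript of the partner. Alternative start and stop codons inside a gene therefore count too. A start codon of the partner was covered in 244 pairs (20.8%) and a stop codon in 104 (8.86%), with both kinds covered in 16. Start codons were covered in 39.5% of the pairs with exon overlap over 5′ ends, 54.2% of those covering a coding gene and 12.5% of those inside one. Stop codons were covered in 19.5% of such pairs over 3′ ends, 22.9% of covering pairs and 1.10% over 5′ ends.

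Position along the coding gene differed between the classes. Antisense genes over a 5′ end began a median of 823 bases inside the coding gene (quartiles 428 and 2293.5), and 262 of 471 (55.6%) began within 1000 bases of the coding start. They ended a median of 5386 bases upstream of it. This is the head-to-head layout, and 362 of the 471 pairs (76.9%) shared exon bases. Antisense genes over a 3′ end began a median of 6371 bases downstream of the coding gene and ended 4050 bases before its end. Of those 301, 51 (16.9%) ended within 1000 bases of the coding 3′ end. Inside a coding gene the midpoint of the antisense gene lay at a median of 58.7% of the coding span, counted from its start, and the antisense gene took a median of 4.30% of that span. By decile of the coding span, the largest share of midpoints, 163 of 1179 (13.8%), lay from 80 to 90%. The deciles beside it held 140 and 144, and the smallest share, 83 (7.04%), lay from 10 to 20%. Midpoints were counted per pair, so an antisense gene inside several coding genes enters once for each. Gm29994, in the protocadherin gamma cluster, enters 24 times, and the deciles were not recounted with 1 partner per antisense gene.

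**Figure D2:**
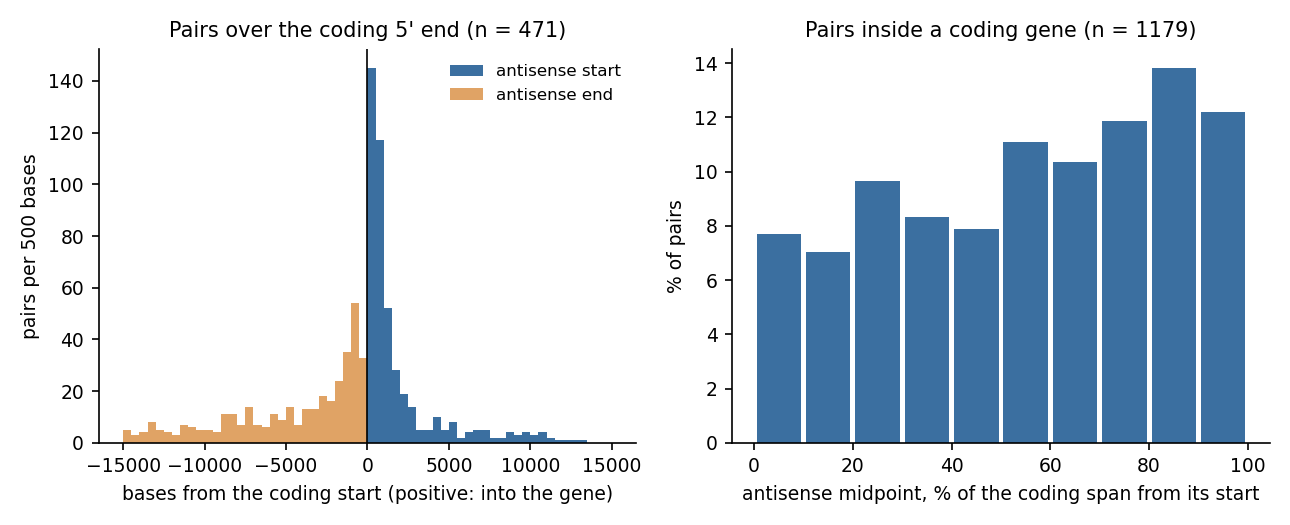
Left, for the 471 pairs over a coding 5′ end, the number of antisense starts and ends in bins of 500 bases, by distance in bases from the coding start (the outermost values lie beyond the axis). Right, for the 1179 pairs inside a coding gene, the share of antisense midpoints in each decile of the coding span. Starts pile up in the first 1000 bases of the coding gene, and midpoints, counted once per pair, are most frequent at 80 to 90% of the span.

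As gene models, antisense genes resembled long intergenic noncoding RNAs (lincRNAs), annotated as lying between coding genes, more than coding genes. Their union exon length had a median of 838 bases, against 1096 for 3413 lincRNA genes and 2905 for 22159 coding genes. Their span had a median of 5247.5 bases, against 4701 for lincRNAs and 16345 for coding genes. Both noncoding classes had a median of 3 merged exons, meaning exons fused over all transcripts, and coding genes had 7. A model of 2 merged exons was the commonest, in 881 antisense genes (42.6%) against 38.4% of lincRNAs and 6.45% of coding genes. A single merged exon was found in 141 (6.82%) and 5 or more in 292 (14.1%). A single transcript was annotated for 1598 antisense genes (77.3%), 73.2% of lincRNAs and 39.0% of coding genes. Manual annotation alone, given as source havana, stood behind 1891 antisense genes (91.4%) but 2.64% of coding genes.

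The extremes show the range of these models. Kcnq1ot1, the imprinted RNA that lies inside Kcnq1, had the longest exon sequence, a single exon of 84395 bases, and 121 of these lie over Kcnq1 exons. Gm28960, inside Nmnat2, had the shortest union at 99 bases in 2 exons. The longest span was 475722 bases in 9530036O11Rik, which starts inside Shh, a signalling protein of embryonic patterning, and ends 466739 bases upstream of its start. Gm10634 had the most merged exons, 26. The most coding partners, 24, belonged to Gm29994, a single exon of 1193 bases in the protocadherin gamma cluster. Protocadherin genes have separate first exons spliced to shared last exons, so 1 antisense gene near those last exons falls within the span of many of them. Outside the protocadherin clusters, Hoxaas3 had 6 partners in the HoxA cluster of patterning genes.

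Most kinds of pair are illustrated by the member with the most shared bases. Over 5′ ends this was Gm10545 with Pcdha11, at 2486 exon bases, and over 3′ ends 1110002L01Rik with Kif3c, a motor protein gene, at 2617. Inside a coding gene it was the pair of A630072M18Rik and Rsbn1l given above. A630072M18Rik ends exactly on the start of Rsbn1l and covers its start codon. It counts as inside because it does not pass that end. Among covering genes D030055H07Rik shared 2203 bases with Glyctk, a glycerate kinase gene, 52.1% of the coding union. Without exon overlap, the longest shared spans were 53685 bases for 4930512H18Rik over the 5′ end of Palld, 120709 for Gm28375 over the 3′ end of Dis3l2, and 115823 for Gm26740 inside Raet1e. The longest antisense genes of the classes spanned from 115823 bases (Gm26740) to 475722 (9530036O11Rik), with Gm12239 at 298761 around Nmur2, a neuropeptide receptor gene.

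Some models lay wholly under coding exons. Every exon base of 51 antisense genes (2.47%) was also an exon base of opposite-strand coding genes, and 236 (11.4%) were covered over more than 50% of their length. The longest of the 51 was Gm38287, whose 2051 bases lie in Nrarp, a target and inhibitor of Notch signalling. Such a gene has no exon base of its own. Whether its reads could be told apart by strand or by its splice junctions was not examined. On the coding side, antisense exons covered more than 20% of the union of 126 genes (0.569%) and more than 50% of 19. The histone genes Hist2h2aa1, Hist2h2aa2, Hist2h2bb and Hist2h3b were at 100%, under Gm20633, Gm20632 and Gm20628, and so was Ldhal6b, under Gm29050.

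Of the 22159 coding genes, 7.89% had an antisense partner and 5.05% shared an exon base with one. Piezo1, the gene floxed in this study, had 0 antisense partners. The share rose with gene span. In quintiles of the coding genes from shortest to longest span, 2.23, 4.67, 5.78, 9.003 and 17.8% had a partner. Coding genes with a partner had a median span of 46444.5 bases, against 15103 for those without. The rise lay mostly in antisense genes inside a coding gene, which were found in 0.135% of the shortest quintile and 13.8% of the longest. Covering antisense genes ran the other way, from 0.858% to 0.0226%. The shares that follow were not adjusted for span.

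**Figure D3:**
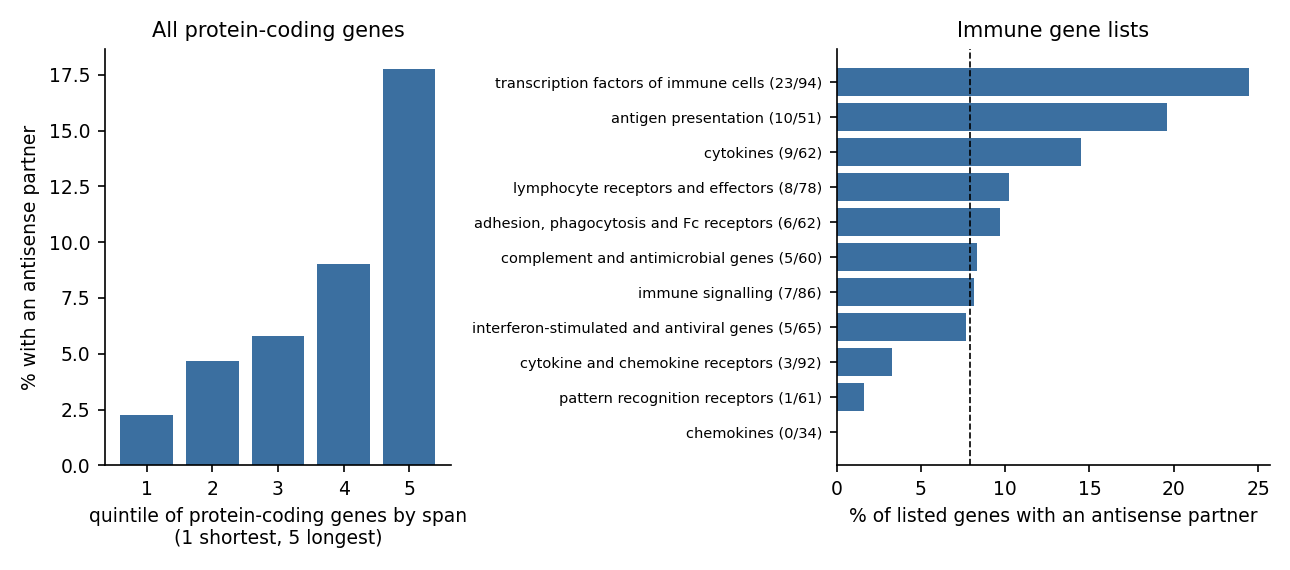
Left, the percentage of coding genes with an antisense partner in each quintile of genes by span (bars). Right, the same percentage in each of 11 immune gene lists (bars, with the number of genes with a partner and found), beside the 7.89% of all coding genes (dashed line). The share reached 17.8% in the longest quintile, 24.5% in transcription factors of immune cells and 0% in chemokines.

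Immune genes were described through 11 lists with 756 symbols, of which 745 were found. Of these, 77 (10.3%) had an antisense partner, beside 7.89% of all coding genes, and 57 (7.65%) shared an exon base, beside 5.05%. They formed 84 pairs with 81 antisense genes. The antisense gene lay inside in 43 pairs (51.2%, beside 57.6% of all pairs) and over the 5′ end in 21 (25%, beside 23.01%). It lay over the 3′ end in 10 (11.9%, beside 14.7%) and covered the gene in 10 (11.9%, beside 4.69%). Exons overlapped in 59 pairs (70.2%, beside 57.4%), by 22 to 1471 bases (median 200, beside 236). Of the 59, 42 reached coding sequence (71.2%, beside 73.2%). The start codon was covered in 9 (15.3%, beside 20.8%) and the stop codon in 10 (16.9%, beside 8.86%). The span quintiles from shortest to longest held 98, 194, 175, 166 and 112 listed genes. Of these, 10.2, 5.67, 9.14, 8.43 and 23.2% had a partner. The shares of all coding genes were 2.23, 4.67, 5.78, 9.003 and 17.8%.

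Transcription factors of immune cells held the most partners, 23 of 94 genes (24.5%), with a median span of 23511.5 bases. In 20 of their 27 pairs the antisense gene lay inside the coding gene, and 17 pairs shared exon bases. Next came antigen presentation with 10 of 51 (19.6%) and cytokines with 9 of 62 (14.5%). Receptors of cytokines and chemokines had 3 of 92 (3.26%) and pattern recognition receptors 1 of 61 (1.64%). Among the 34 chemokine genes, which are short (median span 3691 bases), 0 had an antisense partner, although 27 of them lie on the chromosomes richest in antisense genes.

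All 9 cytokine genes with a partner shared exon bases with it. Gm12534 lay under Il21, a cytokine of follicular helper T cells, with all of its 469 bases in Il21 exons. Its longest unbroken overlap with a protein-coding transcript was 35 bases, so most of the 469 lie over other Il21 transcripts. Gm12214 lay likewise under Il5, the growth factor of eosinophils, with 417 of 417 bases, and it covered the stop codon. The coding part of these overlaps is shown, because neither antisense gene has a base outside its partner's exons.
Gm12534, over coding sequence of Il21, chr3:37232435-37232469, plus strand: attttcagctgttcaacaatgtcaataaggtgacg
Gm12214, over coding sequence of Il5, chr11:53723953-53724011, minus strand: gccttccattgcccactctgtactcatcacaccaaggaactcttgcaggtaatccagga
Both are written as the antisense RNA reads, 5′ to 3′. Gm12223 ran over the 5′ end of Csf2, which encodes GM-CSF, and its 96 shared bases were all coding. Gm16685 over Il7, Gm29491 over Tgfb2 and Gm15895 over Il34, the second ligand of the M-CSF receptor, met noncoding exon bases of their partners only, at 105, 124 and 75 bases. Tnfsf13os covered Tnfsf13, a survival factor of B cells, and shared 221 bases. 2310044K18Rik lay inside Il16 over 166 coding bases.

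Il1bos belongs to Il1b, the interleukin-1β gene that macrophages induce in inflammation. It runs from 1242 bases inside Il1b to the other side of its start, ending at -4609. Its union of 2980 bases met 25 Il1b exon bases, and these belong to a retained-intron transcript, so the overlap with the protein-coding transcript was 0 bases. Il1bos was thus intron-only with respect to the Il1b messenger RNA, although the rule counts it among pairs with exon overlap.

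At Tgfb2, which encodes a growth factor of the TGF-β family, the antisense exons reached the promoter. The 250 bases upstream of the Tgfb2 start, from RefSeq on GRCm38.p6 (chr1:186705990-186706239, minus strand), are written 5′ to 3′ with the 167 bases covered by exons of Gm29491 in capitals.
Tgfb2 upstream: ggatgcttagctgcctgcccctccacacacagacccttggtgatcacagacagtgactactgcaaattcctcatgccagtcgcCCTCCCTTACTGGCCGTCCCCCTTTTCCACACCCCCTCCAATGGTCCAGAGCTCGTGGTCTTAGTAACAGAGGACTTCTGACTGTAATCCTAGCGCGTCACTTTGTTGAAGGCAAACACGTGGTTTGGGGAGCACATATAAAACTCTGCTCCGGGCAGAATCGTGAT
At Il6ra the single exon of RP24-122I22.6 covered all 250 bases upstream of the start. Among the 31 immune pairs over a 5′ end or covering, 8 had an antisense exon within the upstream window of a RefSeq start. Some pairs classed as inside also reached such a window, where the RefSeq start lay downstream of the deposited one. Exons of Gm13256 covered 250 of 250 bases at Gata3, where the RefSeq start lay 11434 bases inside the gene. Those of Gm19412 covered 199 at Tapbp, with the start 3579 bases inside, and those of Gm16894 covered 9 at Il1r2.

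**Figure D4:**
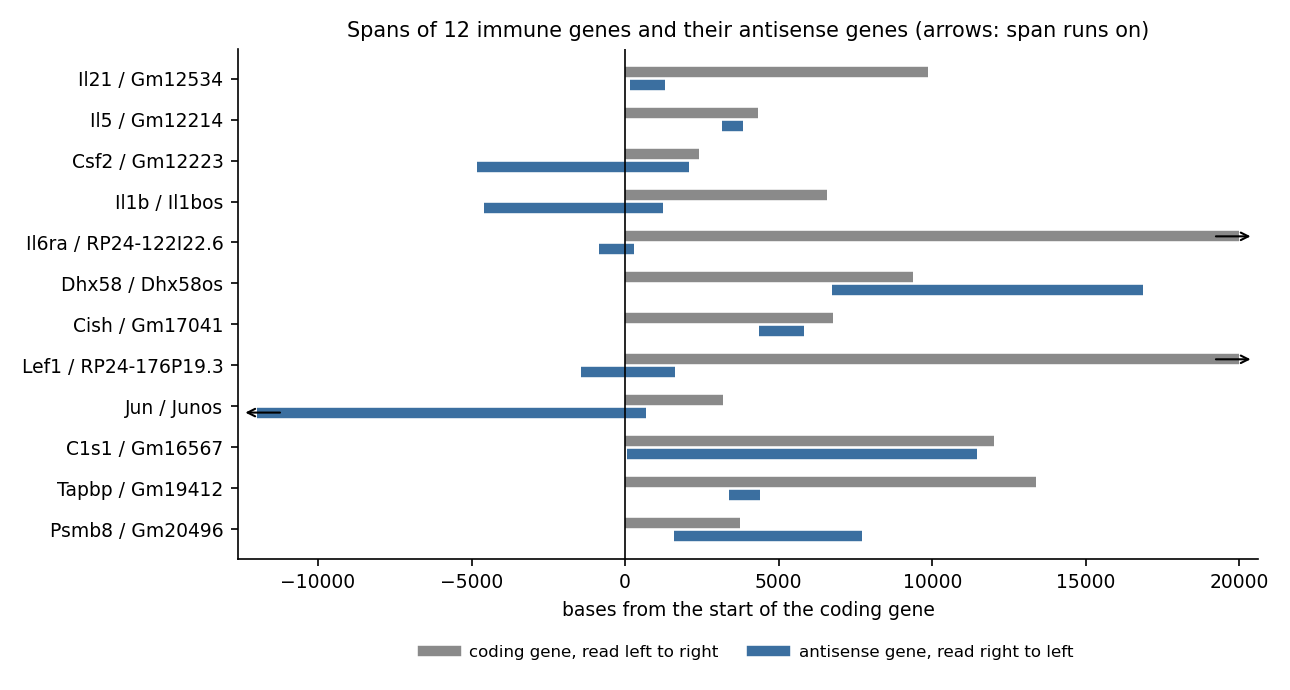
Spans of 12 immune genes (grey, read left to right) and of their antisense genes (blue, read right to left), in bases from the start of the coding gene, with arrows where a span runs past the axis. The genes were chosen from the lists to show positions over either end and inside. Antisense genes of Csf2, Il1b, Il6ra, Lef1 and Jun cross the coding start, those of Dhx58 and Psmb8 cross the coding end, and the others lie inside.

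Among receptors, Gm16008 covered Tnfrsf18, a costimulatory receptor of T cells, sharing 414 bases that included the start and stop codons. RP24-122I22.6 shared 242 bases with Il6ra, 85 of them coding. Gm16894 interleaved with Il1r2, the decoy receptor of interleukin-1, without a shared exon base. Dhx58, a sensor of viral RNA related to RIG-I, was the single pattern recognition receptor with a partner. Dhx58os ran over its 3′ end and shared 141 bases, all of them coding. The other RIG-I-like receptors, Toll-like receptors and NOD-like receptors of the list had 0 antisense partners in the deposited annotation.

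In immune signalling, Gm17041 lay wholly under exons of Cish, a feedback inhibitor of cytokine signalling, at 479 of 479 bases with 321 coding. Gm26879 shared 205 noncoding bases with Traf5. Ikbke, a kinase of the interferon response, held Gm28914 and Gm28913, with 159 and 65 shared bases. The partners of Tyk2, Ikbkb and Fyn shared no exon base (0) with them.

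Among transcription factors, RP24-176P19.3 shared 1208 bases with Lef1 as an unspliced exon over its 5′ end. Gm20402 shared 674 bases with Foxo1, 98.1% of its own length. Bach2os lay over 537 coding bases of Bach2, a repressor in B and T cells, and Gm26577 over 491 coding bases of Myb, a factor of blood progenitors. Runx2os1 shared 519 noncoding bases with Runx2, a factor of bone formation that holds 2 further antisense genes in its introns. Zeb2os shared 467 noncoding bases with Zeb2, a repressor that maintains macrophage identity, and lay inside it, 3308 to 6257 bases from the Zeb2 start. All 440 bases of Gm15655 lay in noncoding exons of Maf, a factor of macrophages and T helper cells. Junos shared 232 noncoding bases with Jun, a subunit of AP-1, and had 23 merged exons in 8 transcripts. Gata3, Rora, Runx1, Ikzf2, Bcl11a, Tox and Zbtb7b also shared exon bases with an antisense gene, between 82 and 316 per pair. Pax5 shared 125 bases with Gm12462, but 0 of them with a protein-coding transcript. Partners in Ikzf1, Ebf1, Runx3, Fli1 and Ets1 lay within an intron.

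In antigen presentation the largest immune overlap was that of B230398E01Rik over the 3′ end of Rfx5, a factor that binds MHC class II promoters. It took 1471 bases, 75.1% of the antisense union and 26.8% of the Rfx5 union, and included the stop codon. A930015D03Rik shared 1003 noncoding bases with the MHC class I gene H2-T22 and held H2-T23 and H2-T24 within its introns. Its longest unbroken overlap with a protein-coding transcript of H2-T22 was 29 bases. Gm19412 shared 665 bases with Tapbp, the chaperone tapasin, and Gm11131 shared 496 with H2-Q4, across the start codon. Gm20496 bridged a pair of neighbours, with 186 coding bases under Psmb8, an immunoproteasome subunit, and 165 bases at Tap2, a peptide transporter. MHC genes belong to families of near-identical copies, so reads there can also be split between copies.

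C1s1, a protease of the complement cascade, held Gm16567, with all of its 576 bases in C1s1 exons and 406 of them coding. Mpo, the peroxidase of neutrophil granules, shared 512 coding bases with Gm11505. Cd22, an inhibitory receptor of B cells, shared 479 bases with Gm29439, 94.1% of the antisense union. Among interferon-stimulated genes, Gm11626 shared 290 bases with Ifi35 and RP24-547J21.4 shared 227 with Oas1c. Slfn5os shared 77 coding bases with Slfn5, and Gm13822 began 37 bases inside Oasl1 and shared 38 noncoding bases. Vcam1, an adhesion molecule of endothelium, shared 61 coding bases with RP24-245I16.3. Selp, Fcgr2b, Hc, Fcna, Slamf7 and Cd7 shared between 76 and 423 bases with theirs. Dock2 shared 460 bases with 4930403D09Rik, but 0 of them with a protein-coding transcript.

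Of 99 antisense RNAs known by name and listed for this work, 20 carried the class antisense in the annotation. Airn overlapped Igf2r over its 5′ end and Mas1 over its 3′ end with 0 shared exon bases, and its 8 merged exons spanned 118812 bases. Nespas, the imprinted antisense RNA of Gnas, shared 988 bases with it, 759 of them coding. Uchl1os spanned 50004 bases with 9 merged exons and shared 295 bases with Uchl1, including the 33 printed above. Where Emx2os, Igf2os, Hoxd3os1 and Dlx1as shared exon bases with a partner, all were noncoding, at 98 to 347 bases per pair. Hoxd3os1 shared 347 bases with Hoxd4, but 0 of them with a protein-coding transcript of Hoxd4. Dlx6os1, Pax6os1, Vax2os, Gm16299 and Dnm3os shared 0 exon bases with their partners. Tsix had no coding partner, because Xist on the other strand is classed as lincRNA.

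Dnm3os lies in an intron of Dnm3, with exons that merge over its 3 transcripts into 1 block of 7928 bases, and hosts 2 microRNAs. Its microRNAs, miR-199a and miR-214, are printed because they are the mature products of the gene. In all, antisense genes hosted 21 microRNA genes on their own strand, in 16 hosts, and 8 of the hairpins lay wholly in an exon. F630028O10Rik on chromosome X, named here after its values were seen, hosts miR-223, a microRNA of myeloid cells, within an exon. It had no coding partner, and the nearest opposite-strand coding gene was Vsig4, a complement receptor of resident macrophages, 3566 bases away. The RefSeq mature sequences (GRCm38.p6) are written with the seed, bases 2 to 8, in capitals.
miR-199a-5p, in Dnm3os, chr1:162217844-162217866, plus strand: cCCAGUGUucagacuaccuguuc
miR-199a-3p, in Dnm3os, chr1:162217883-162217904, plus strand: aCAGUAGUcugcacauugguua
miR-214-3p, in Dnm3os, chr1:162223438-162223459, plus strand: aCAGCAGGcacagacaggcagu
miR-223-3p, in F630028O10Rik, chrX:96242884-96242905, plus strand: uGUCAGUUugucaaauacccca
None of these 4 seeds is shared with another of the 4.

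Sequence features outside the pairing rule were read from transcripts with identical exons in GENCODE M21, present for 1984 antisense genes. The polyadenylation signals AATAAA or ATTAAA were searched on the transcript's own strand. At least 1 lay in the last 50 bases of 43.5% of antisense genes, 40.01% of lincRNAs and 70.2% of coding genes. In the first 50 bases the shares were 1.56, 2.17 and 1.18%. Within antisense genes the share was 50.9% over 5′ ends, 43.5% over 3′ ends, 46.8% for covering genes and 40.7% inside a coding gene. The libraries were made from polyadenylated RNA, and whether antisense genes without a signal are polyadenylated was not tested. The last 50 bases of a few antisense genes show both cases, with signals in capitals.
Il1bos, last 50 bases: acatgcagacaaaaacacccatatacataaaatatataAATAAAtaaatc
Zeb2os, last 50 bases: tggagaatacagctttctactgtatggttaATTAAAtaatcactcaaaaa
Dhx58os, last 50 bases, no signal: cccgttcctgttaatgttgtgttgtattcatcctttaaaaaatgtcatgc
Of 97 immune-partnered or known antisense genes with a sequence, 37 (38.1%) had a signal. The longest open reading frame from an ATG had a median of 62 codons in antisense transcripts and 58 in lincRNAs. Frames of at least 100 codons occurred in 19.3% and 13.9%.

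CpG-rich promoters were counted where the RefSeq start lay within 100 bases of the deposited one, in windows of 300 bases with a GC share of at least 50% and a CpG observed-to-expected ratio of at least 0.6. They were found at 111 of 463 antisense genes (23.97%), 21.3% of lincRNAs and 47.6% of coding genes. Antisense genes over 5′ ends had them in 37.6% of 109, those over 3′ ends in 35.2% of 91, and those inside a coding gene in 11.8% of 203. Coding genes with an antisense gene inside had CpG-rich promoters in 62.5%, those with one over the 3′ end in 57.9% and over the 5′ end in 53.0%. Coding genes without a partner had them in 46.8%. RefSeq held 731 of the 2068 antisense genes (35.3%), so these shares describe the better documented ones.

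Antisense genes were spread unevenly over the chromosomes. Chromosomes 1 to 5 and 11, grouped after the counts were seen, held 1182 of the 2068 (57.2%) with 37.1% of the coding genes, which is 14.4 antisense genes per 100 coding genes. The other 13 autosomes held 830, or 6.58 per 100. In GENCODE M21, a later annotation of the same build, the 6 chromosomes held 1185 antisense genes and the other 13 autosomes 1728. Of 733 antisense identifiers found in GENCODE M21 alone, 10 lay on the 6 chromosomes. Chromosome X held 47 and 45. The contrast between 14.4 and 6.58 per 100 in the deposited annotation was 14.3 and 13.8 per 100 in GENCODE M21.

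**Figure D5:**
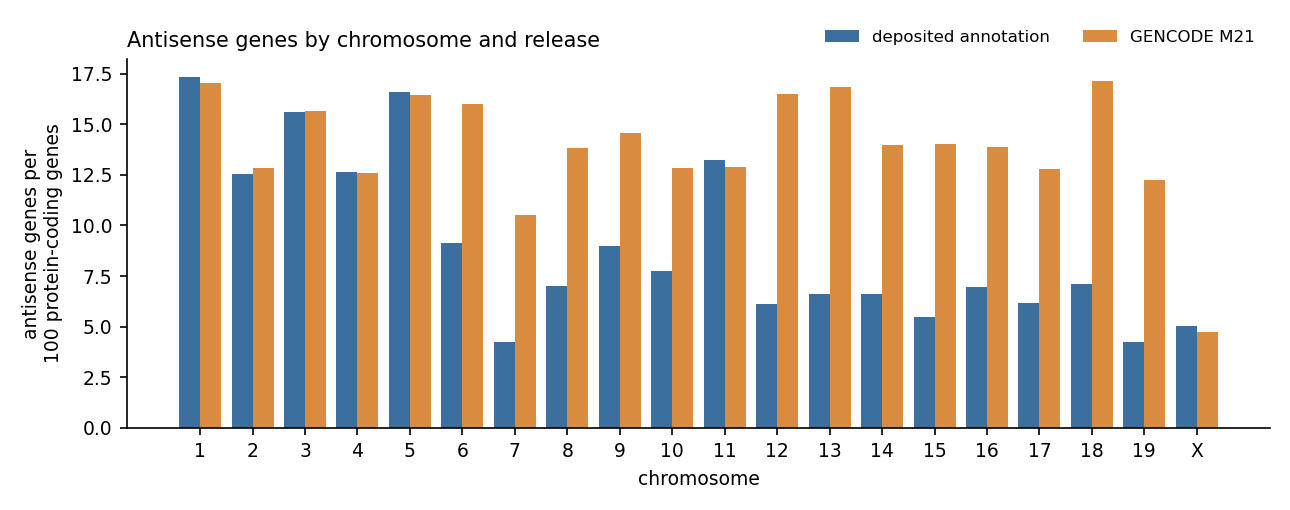
Antisense genes per 100 protein-coding genes on each autosome and X (bars), in the deposited annotation and in GENCODE M21. The deposited bars reach 17.4 on chromosome 1 and 4.22 on chromosome 7, and the GENCODE M21 bars are higher on each of the 13 autosomes outside chromosomes 1 to 5 and 11.

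The same split touched the immune genes. On the 6 chromosomes 50 of 321 listed genes (15.6%) had an antisense partner, beside 11.5% of all coding genes there, and on the other 13 autosomes 27 of 405 (6.67%), beside 6.04%. With GENCODE M21, 104 of 740 listed genes (14.1%) had one, beside 12.0% of all coding genes. It added a partner to 28 listed genes, among them Hif1a, the oxygen-regulated transcription factor, Edn1, which encodes endothelin-1, Tlr3, a sensor of double-stranded RNA, Cx3cr1, a chemokine receptor of monocytes, Cd274, the ligand PD-L1, Icam1 and Jund. Of the 28, only Slfn2 lies on one of the 6 chromosomes. Gimap1 lost its partner, because Gimap1os is classed as a processed transcript there.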

How the data were processed

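The deposited file is a gene annotation for the whole series. Its lines give coordinates, classes and names on GRCm38 in place of a measured value, and 0 of 1500259 lines carry a score, so the unit of the deposited columns is a genome position and no library depth is known. CASAVA 1.8, FastQC, TopHat2, Bowtie2 and Cufflinks are named in the submitters' processing notes, without role or order. Its release was not given in the sources used here. Exons of all transcripts of a gene were merged, spans compared and overlaps counted in Python 3.11.15 (numpy 2.4.6, scipy 1.17.1). A gene that reaches both ends of its partner was called covering. On simulated data, 200 of 200 pairs had the right class and shared bases.

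The members and lists were chosen with earlier results of these data known, and no test was made. Named genes are antisense genes with a partner in the immune lists (full values for up to 12), the pair with most shared bases and the longest antisense gene of each class, known antisense RNAs, and extremes. Start and stop codons, promoters, hosted RNAs, span quintiles, chromosome groups and wholly covered genes were added after the data had been seen. Alternatives were a minimum overlap of 100 bases, an end passed by 50 bases, 1 partner per antisense gene, protein-coding or antisense transcripts only, main chromosomes only, exons of the transcript with the most exons, and GENCODE M21. Sequences came from GENCODE M21 and RefSeq GRCm38.p6, and a genome sequence was not used here. A few pairs are not reported here.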

Additional observations from a re-analysis of the deposited data

How the results depend on the processing

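Each share or median was called moved when an alternative left the 95% interval of its value (exact binomial for shares, ranks for medians). The interval covers counting only and served as a yardstick, because the shares are complete counts and pairs are not independent. Of 46 alternative values for 11 results, 37 stayed within it and 9 moved. Among the 37, the 4 values with antisense transcripts only could not move, because all 2817 antisense transcripts carry that class. GENCODE M21 gave 92.3% of antisense genes with a partner (86.4% deposited), 12.0% of coding genes with one (7.89%), 14.1% of immune genes with one (10.3%), a median union of 920 bases (838) and a median span of 5672 bases (5247.5). Of the deposited pairs, 1973 (96.4%) also occur there, and 1953 of these kept position and exon class. With 1 partner per antisense gene, the covering share fell to 3.41% (4.69%) and the share with exon overlap rose to 61.2% (57.4%). That share was 46.1% with at least 100 shared bases and 46.8% with at least 75 unbroken bases, the latter chosen after seeing the data. All 11 results stayed within the interval on main chromosomes only, which left out 8 of the 2068 antisense genes. No paired analysis was possible because no library value was analysed and each group has 1 library, so no replicate could be left out. Intron ends were not examined, since a genome sequence was not used here.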

Other observations

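The 281 antisense genes without a coding partner lay at varied distances from one. In 239 no gene of any class lay on the opposite strand, and 42 lay over a gene of another class, among them 15 over lincRNAs and 7 over antigen receptor segments. The median gap to the nearest opposite-strand coding gene was 3684 bases, against 80410 for lincRNAs. The gap was under 1000 bases for 100 of the 281 (35.6%), and in 93 of these the starts were adjacent, so the genes were divergent neighbours without a shared base. Among lincRNAs it was under 1000 bases for 665 of 3406 (19.5%), a count that includes lincRNAs overlapping such a coding gene. In GENCODE M21, 13 deposited antisense genes are classed as bidirectional_promoter_lncRNA, 20 as lincRNA and 15 as protein_coding, and 1954 remain antisense. The 15 include Fcor, Inafm2, Trpc5os and Toporsos.

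The symbols of 253 antisense genes end in os or as, with or without a number, and 216 of these (Il1bos, Zeb2os and Junos among them) are named after a partner found by the pairing. Sox5, a transcription factor gene of 5 antisense genes, carried Sox5os1 to Sox5os5. Of 2817 antisense transcripts, 1097 (38.9%) had transcript support level 1, the level at which every junction has good RNA evidence. Small nucleolar RNAs numbered 7 within antisense genes, in 7 hosts, among them Snora78 in Snhg9, which lies against Rps2, a ribosomal protein gene.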
